A study of Mus musculus with 14 samples.

Results

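Expression of 41 lysosomal genes was examined in mouse epididymal fat: hydrolases of the lysosomal lumen, proteins of its membrane, and transcription factors that control such genes. The genes were taken from a fixed list that leaves out cathepsins and proton pump subunits. That list was chosen with earlier results of these data known. All 41 had a probe set annotated to that gene alone, among 19937 genes measured, and the set with the highest mean over the arrays was used for each. RNA of whole epididymal fat pads from male mice on the C57BL6/J strain was put on 14 arrays, and the labels number the arrays of a group as biological replicates without saying whether animals were pooled. Mice of the genotype labelled EKO, which the labels tie to apolipoprotein E without describing the allele, were on Western diet (4 arrays) or normal diet (4 arrays). Wild type mice (WT) were on Western diet (3 arrays) or normal diet (3 arrays). Western diet, described as holding 42% milk fat and abbreviated HFD in the labels, and normal diet were fed for 24 weeks, beginning when the mice were 8 weeks old.

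Lysosomes break down lipids, glycans, proteins and nucleic acids delivered by endocytosis, phagocytosis and autophagy, using soluble acid hydrolases that mostly reach them on a mannose 6-phosphate tag. Cholesteryl esters that arrive in lipoproteins are cut by lysosomal acid lipase, and the freed cholesterol leaves by way of NPC2 and NPC1. TFEB, TFE3 and MITF bind an E-box element in many lysosomal promoters and raise their transcription when they enter the nucleus. In fat, macrophages that clear dying adipocytes and their lipid are rich in lysosomes. The design allows a diet contrast within each genotype, a genotype contrast within each diet, and a test of the difference between the diet effects.

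Upstream sequences are shown for 6 members: the 4 that rose with Western diet in WT under every alternative tried (Gla, Lipa, Npc2 and Lgmn), and Lamp1 and Mcoln1, which hold several E-boxes and did not pass. They are the 250 bases before a gene start in RefSeq's GRCm38.p6 annotation, 5′ to 3′ on the gene's strand, with each E-box (CACGTG, which reads the same on both strands) in capitals. Where a gene had several starts, the window shown was picked by its motifs. Most E-boxes with T before and A after came first, then most E-boxes, so other starts of a gene can hold fewer.
Gla (chrX:134601006-134601255, minus strand): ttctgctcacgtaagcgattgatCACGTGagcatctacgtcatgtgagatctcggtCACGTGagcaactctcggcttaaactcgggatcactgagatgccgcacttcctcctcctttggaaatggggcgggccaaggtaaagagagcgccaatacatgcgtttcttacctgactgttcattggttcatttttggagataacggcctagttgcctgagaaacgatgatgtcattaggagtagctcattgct
Lipa (chr19:34527475-34527724, minus strand): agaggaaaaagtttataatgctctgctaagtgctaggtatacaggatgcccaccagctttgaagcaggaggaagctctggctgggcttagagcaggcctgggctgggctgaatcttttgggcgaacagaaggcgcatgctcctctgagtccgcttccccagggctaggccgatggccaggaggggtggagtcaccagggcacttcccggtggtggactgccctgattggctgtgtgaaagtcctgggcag
Npc2 (chr12:84773113-84773362, minus strand): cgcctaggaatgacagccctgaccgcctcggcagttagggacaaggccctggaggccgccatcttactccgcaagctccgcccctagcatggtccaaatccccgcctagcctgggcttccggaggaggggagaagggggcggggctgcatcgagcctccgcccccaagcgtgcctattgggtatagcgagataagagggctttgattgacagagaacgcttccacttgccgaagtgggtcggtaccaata
Lgmn (chr12:102439093-102439342, minus strand): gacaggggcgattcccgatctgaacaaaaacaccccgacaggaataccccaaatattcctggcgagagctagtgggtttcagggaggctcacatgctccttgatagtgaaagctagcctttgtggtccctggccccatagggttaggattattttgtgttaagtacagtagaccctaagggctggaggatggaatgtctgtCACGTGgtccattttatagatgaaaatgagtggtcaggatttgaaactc
Lamp1 (chr8:13158911-13159160, plus strand): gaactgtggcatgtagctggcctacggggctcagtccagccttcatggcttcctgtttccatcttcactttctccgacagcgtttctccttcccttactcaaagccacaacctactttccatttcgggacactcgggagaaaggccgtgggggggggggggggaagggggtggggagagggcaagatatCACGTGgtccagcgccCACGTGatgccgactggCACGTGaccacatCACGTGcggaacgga
Mcoln1 (chr8:3500269-3500518, plus strand): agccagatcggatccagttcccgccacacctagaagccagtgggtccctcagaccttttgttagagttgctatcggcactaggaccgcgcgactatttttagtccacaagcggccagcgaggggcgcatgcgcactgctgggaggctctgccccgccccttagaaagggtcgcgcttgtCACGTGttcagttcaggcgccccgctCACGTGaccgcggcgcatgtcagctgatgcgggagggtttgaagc

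In windows of 250 bases before and 50 after the start, 10 of the 38 members found in the RefSeq promoter table held an E-box in at least 1 window (26.3%), against 8.09% of 27025 genes. Lamp1 had 4, and Gla, Cln3 and Mcoln1 had 2 each. Arsa, Gaa, Glb1, Lgmn, Naglu and Sgsh had 1. With T before and A after (TCACGTGA, the core of the TFEB element, counted within the E-boxes), the motif was in Gla, Cln3 and Mcoln1, 3 of 38 members (7.89%), against 1.12% of all genes. In Gla both E-boxes had these flanks. Of the 10 with an E-box, 2 rose in WT on Western diet (Gla and Lgmn), with a median log2 fold change of 0.22 over the 10. Of the 28 without one, 3 rose and 2 fell, with a median of 0.13. The Lipa and Npc2 windows did not hold these letters.

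Apoe ranged from 9.46 to 10.26 in EKO and from 13.13 to 13.65 in WT, on the log2 scale of the deposited values, which is used throughout. Adipocyte markers were bright, with a mean level over 11 genes of 12.94 to 13.24 in every array. Epididymis markers had a mean level over 5 genes of 6.66 to 7.07 in every array. Of these 5 genes, 3 had means at or below 6.84, the highest background of any array. Background was 6.29 to 6.84, estimated from genes of olfactory and vomeronasal receptors. By that background the arrays fell into 2 sets: 5 at 6.75 to 6.84 (replicates 1 and 3 of EKO on Western diet, 2 of EKO on normal diet, and 1 of each WT group) and 9 at 6.29 to 6.56. All 41 members lay above background, with means over the arrays of 8.73 (Tfeb) to 13.51 (Psap) and a median of 10.70, against 8.34 for all genes. Their median SD within groups was 0.16, as over all genes. These are levels of probe sets with different probes, so a level is compared between groups and not between genes.

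In WT fat on Western diet, 5 hydrolases and carriers rose: Lipa (2.12-fold), Lgmn (2.09-fold), Npc2 (1.75-fold), Gla (1.7-fold) and Galc (1.65-fold). Acp5 and Arsb fell, and none of the 7 membrane proteins and 3 transcription factors among the members passed. Of 41 members, 5 rose and 2 fell at a Benjamini-Hochberg adjusted p under 0.05 over all genes (limma, 3 arrays against 3). Over all 19937 genes 5.49% passed, 3.19% higher and 2.3% lower. A positive log2 fold change was seen in 35 of 41 members, against 44.2% of all genes, and the median was 0.20, against -0.02. The WT groups did not overlap for 14 members that were higher and 3 that were lower on Western diet, where 8.77% and 11.3% of all genes were apart in these directions. An unadjusted p under 0.05 was found for 16 of 41 members, 13 higher and 3 lower, against 16.9% of all genes. Every WT array on Western diet lay above all 11 other arrays for Lipa, Npc2, Gla, Psap, Galc, Gusb, Lgmn and Dnase2a (8 of 41, against 4.02% of genes), and below them for Arsb and Acp5 (2 of 41, against 3.42%). In the same comparison 10 of 16 macrophage markers rose, with a median of 1.07, and their part in the members' values was not tested. In whole tissue, a change in the number of cells of a type and a change in RNA per cell cannot be told apart.

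The count in WT depended on the arrays used. It was 4 members without replicate 3 on normal diet, without replicate 2 on Western diet or without replicate 3 on Western diet, and the 4 were Lipa, Npc2, Gla and Lgmn. With the 2 background sets as a block 12 members passed (9 higher and 3 lower), and among the 9 arrays of lower background 12 passed (11 higher and 1 lower). The count over all 19937 genes, 1094 with all arrays and no block, was also higher under these settings, at 2007 and 2152. With only 1 WT array for each diet, the set of higher background was not tested alone.

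**Figure D1:**
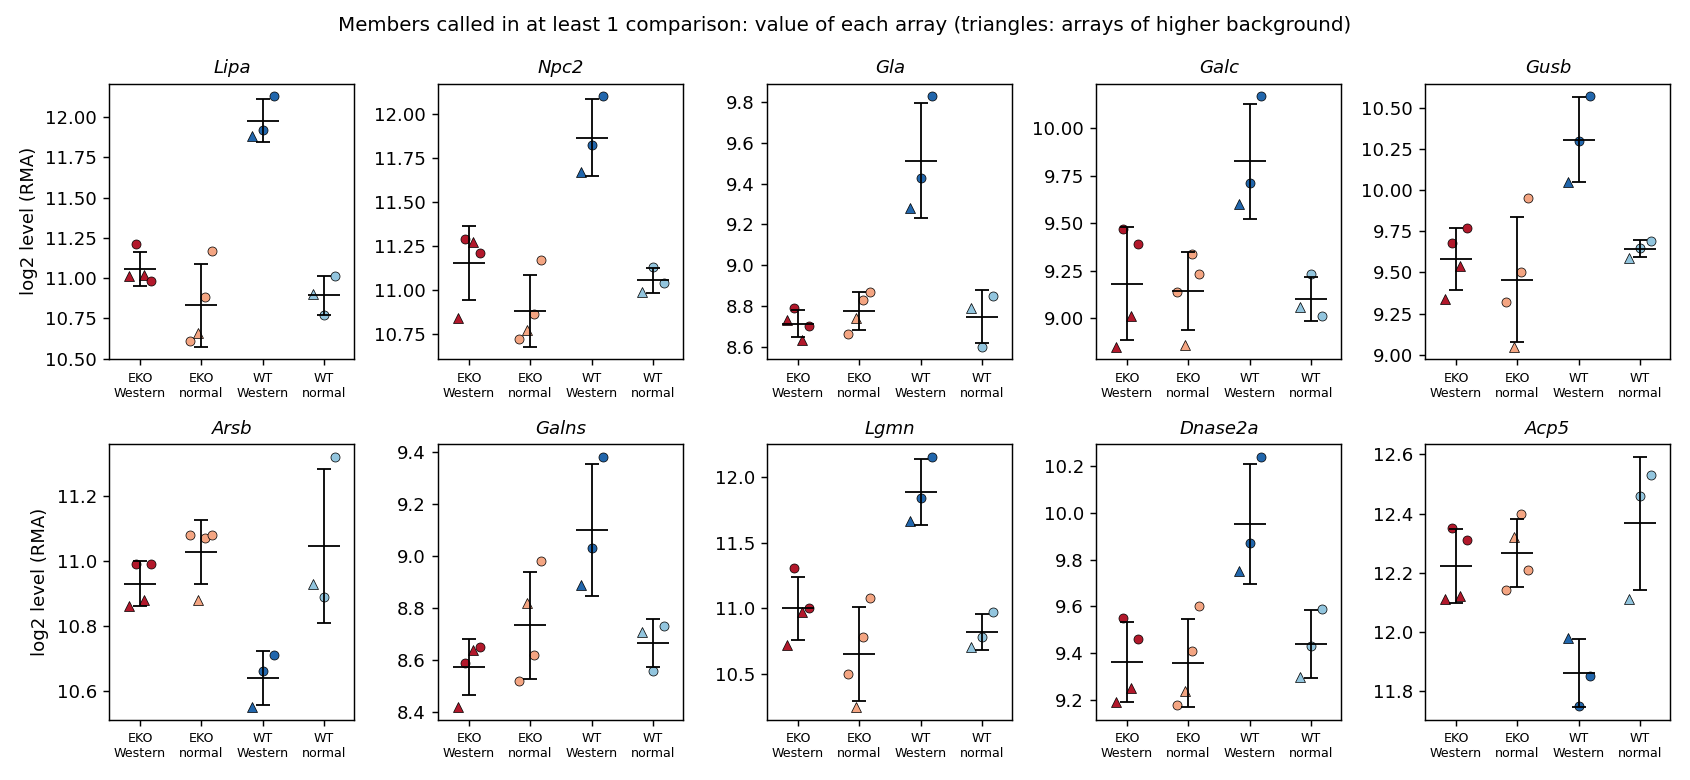
Log2 level of the 10 members that passed in at least 1 comparison, 1 point per array, with the group mean (bar) and SD (whiskers); triangles are the 5 arrays of higher background. WT arrays on Western diet stand above the other 11 arrays in Lipa, Npc2, Gla, Galc, Gusb, Lgmn and Dnase2a and below them in Arsb and Acp5, while the EKO groups overlap each other in all 10.

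Among the genes that release and export cholesterol and lipid, 2 of 4 rose in WT. Lipa, the acid lipase that cuts cholesteryl esters and triglycerides, had log2 levels of 11.01, 11.21, 11.02 and 10.98 in EKO on Western diet and 10.61, 10.66, 10.88 and 11.17 in EKO on normal diet. The WT arrays gave 11.88, 11.92 and 12.13 on Western diet and 10.90, 10.77 and 11.01 on normal diet. All WT arrays on Western diet were at or above 11.88 and all others at or below 11.21. Its log2 fold change was 1.09 ± 0.13 (SE), adjusted p = 0.00047. Npc2, the luminal cholesterol carrier, was 10.84, 11.29, 11.27 and 11.21 in EKO on Western diet and 10.72, 10.77, 10.86 and 11.17 in EKO on normal diet. WT fat had 11.67, 11.82 and 12.10 on Western diet and 10.99, 11.13 and 11.04 on normal diet. The WT diets did not overlap, and Npc2 rose by 0.81 ± 0.15, adjusted p = 0.00492.

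Npc1, the membrane protein that takes cholesterol from NPC2, was 10.56, 10.70, 10.42 and 10.62 in EKO on Western diet and 10.53, 10.46, 10.82 and 10.84 in EKO on normal diet. For WT the levels were 10.77, 10.82 and 11.02 on Western diet and 10.58, 10.67 and 10.71 on normal diet. The WT groups were again apart, but by a small step: the log2 fold change was 0.22 ± 0.12, adjusted p = 0.388, and it did not pass. Pla2g15, the lysosomal phospholipase, was 0.45 ± 0.25, adjusted p = 0.412, with overlapping WT groups.

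Sphingolipid breakdown genes had positive values in 9 of 9, and 2 rose. Gla, the α-galactosidase that trims globotriaosylceramide, was 8.73, 8.79, 8.63 and 8.70 in EKO on Western diet and 8.66, 8.74, 8.83 and 8.87 in EKO on normal diet. Levels in WT were 9.28, 9.43 and 9.83 on Western diet and 8.79, 8.60 and 8.85 on normal diet. No array outside WT on Western diet exceeded 8.87. Gla rose by 0.77 ± 0.12, adjusted p = 0.00226. Galc, which removes galactose from galactosylceramide, was 8.85, 9.47, 9.01 and 9.39 in EKO on Western diet and 9.14, 8.86, 9.34 and 9.23 in EKO on normal diet. In WT it was 9.60, 9.71 and 10.17 on Western diet and 9.06, 9.23 and 9.01 on normal diet. The WT groups did not overlap and Galc rose by 0.73 ± 0.18, adjusted p = 0.0299. The Galc call was lost without any single WT array other than replicate 1 on Western diet. The rest of the pathway ran from Hexa, a β-hexosaminidase subunit (0.58 ± 0.21, adjusted p = 0.142), down to Smpd1, the acid sphingomyelinase (0.02 ± 0.12, adjusted p = 0.982). Psap, the precursor of the saposins that present sphingolipids to these enzymes, missed the threshold narrowly (0.32 ± 0.09, adjusted p = 0.0522).

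Among enzymes of glycoprotein and glycogen breakdown none of 5 passed. The smallest p values belonged to Man2b1, the α-mannosidase (0.36 ± 0.15, adjusted p = 0.222), and Manba, the β-mannosidase (0.30 ± 0.15, adjusted p = 0.345). Gaa, which degrades glycogen, was at -0.06 ± 0.13. Glycosaminoglycan enzymes went both ways. Arsb, arylsulfatase B, was 10.86, 10.99, 10.88 and 10.99 in EKO on Western diet and 11.08, 10.88, 11.07 and 11.08 in EKO on normal diet. The WT arrays gave 10.55, 10.66 and 10.71 on Western diet and 10.93, 10.89 and 11.32 on normal diet. The WT groups did not overlap, and Arsb fell by 0.41 ± 0.11, adjusted p = 0.047. This call is marginal: a dimmer probe set of Arsb (number 10406672) gave -0.12, the mean of both sets did not pass, and the call was lost in 15 of 24 alternatives, among them leaving out WT replicate 3 on normal diet, any WT array on Western diet, any EKO array on Western diet, or EKO replicate 1, 3 or 4 on normal diet. Ids, iduronate sulfatase, was also lower (-0.38 ± 0.12, adjusted p = 0.0789) but did not pass.

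Gusb, the β-glucuronidase, was 9.34, 9.68, 9.54 and 9.77 in EKO on Western diet and 9.32, 9.05, 9.5 and 9.95 in EKO on normal diet. WT fat had 10.05, 10.30 and 10.57 on Western diet and 9.59, 9.65 and 9.69 on normal diet. The WT groups were apart, with a log2 fold change of 0.66 ± 0.19, adjusted p = 0.0552, just short of the threshold. Galns, a sulfatase for keratan and chondroitin sulfate, was 8.42, 8.59, 8.64 and 8.65 in EKO on Western diet and 8.52, 8.82, 8.62 and 8.98 in EKO on normal diet. For WT the levels were 8.89, 9.03 and 9.38 on Western diet and 8.71, 8.56 and 8.73 on normal diet. The WT groups did not overlap, with a log2 fold change of 0.43 ± 0.14, adjusted p = 0.0831. Naglu (0.39 ± 0.17), Sgsh (0.20 ± 0.14) and Idua (0.04 ± 0.12), which take part in heparan sulfate breakdown, did not pass.

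The other hydrolases, a mixed group of 6, had 1 member that rose and 1 that fell. Lgmn, legumain, an asparaginyl protease, was 10.72, 11.31, 10.97 and 11 in EKO on Western diet and 10.50, 10.25, 10.78 and 11.08 in EKO on normal diet. Levels in WT were 11.66, 11.84 and 12.15 on Western diet and 10.71, 10.78 and 10.97 on normal diet. The WT diets were well apart, and Lgmn rose by 1.06 ± 0.19, adjusted p = 0.00516. Acp5, the tartrate-resistant acid phosphatase of osteoclasts and some macrophages, was 12.11, 12.35, 12.12 and 12.31 in EKO on Western diet and 12.14, 12.32, 12.40 and 12.21 in EKO on normal diet. In WT it was 11.98, 11.75 and 11.85 on Western diet and 12.11, 12.46 and 12.53 on normal diet. All WT arrays on Western diet lay below every other array, so this gene ran against most members. Acp5 fell by 0.51 ± 0.12, adjusted p = 0.0231, a call lost without WT replicate 2 or 3 of either diet. Dnase2a, which digests DNA of engulfed cells, was 9.19, 9.55, 9.25 and 9.46 in EKO on Western diet and 9.18, 9.24, 9.41 and 9.60 in EKO on normal diet. The WT arrays gave 9.75, 9.87 and 10.24 on Western diet and 9.30, 9.43 and 9.59 on normal diet. The WT groups did not overlap, with a log2 fold change of 0.51 ± 0.15, adjusted p = 0.057. Tpp1 (0.11 ± 0.10), Ppt1 (0.08 ± 0.12) and Acp2 (0.22 ± 0.15), a peptidase, a thioesterase and another acid phosphatase, did not pass.

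None of the 7 membrane proteins passed in WT, and their log2 fold changes lay between -0.05 and 0.25. Lamp1, a major glycoprotein of the lysosomal membrane, was 12.29, 12.51, 12.46 and 12.49 in EKO on Western diet and 12.49, 12.38, 12.54 and 12.49 in EKO on normal diet. WT fat had 12.50, 12.69 and 12.76 on Western diet and 12.39, 12.64 and 12.60 on normal diet. The groups overlapped (0.11 ± 0.10, adjusted p = 0.741). Lamp2, its relative needed for autophagy, was 11.94, 12.22, 12.08 and 12 in EKO on Western diet and 12.29, 12.01, 12.24 and 12.18 in EKO on normal diet. For WT the levels were 12.09, 12.25 and 12.06 on Western diet and 12.16, 12.12 and 12.27 on normal diet. These overlapped too (-0.05 ± 0.10, adjusted p = 0.941). Cln3 had the smallest p of the group (0.25 ± 0.13, adjusted p = 0.375), and Mcoln1, the calcium channel of the lysosome, stood at 0.06 ± 0.12.

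None of the 3 transcription factors passed in any of the 5 comparisons, though Tfe3 did under some alternatives. Tfeb was 8.83, 8.92, 8.54 and 8.72 in EKO on Western diet and 8.80, 8.82, 8.63 and 8.49 in EKO on normal diet. Levels in WT were 8.65, 8.90 and 8.87 on Western diet and 8.53, 8.67 and 8.81 on normal diet. The diets overlapped, and the WT log2 fold change was 0.13 ± 0.12, adjusted p = 0.738. Tfe3 was 9.53, 9.96, 9.54 and 9.86 in EKO on Western diet and 9.84, 9.60, 9.89 and 9.98 in EKO on normal diet. In WT it was 9.69, 10.27 and 10.27 on Western diet and 9.75, 9.91 and 9.93 on normal diet. In WT on Western diet the array of higher background had 9.69 and the others 10.27 each. The log2 fold change was 0.22 ± 0.16, adjusted p = 0.617, and Tfe3 passed for diet in WT in 2 of 24 alternatives. Within the arrays of lower background, which keep only replicates 2 and 3 of each WT group, Tfe3 was at 0.35 ± 0.09 and passed (adjusted p = 0.0351). With the background sets as a block Tfe3 was at 0.22 ± 0.08 and did not pass (adjusted p = 0.121). With array weights Tfe3 passed for diet in WT and between the genotypes on Western diet.

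Mitf was 9.40, 10.01, 9.42 and 9.92 in EKO on Western diet and 9.46, 9.95, 9.54 and 9.52 in EKO on normal diet. The WT arrays gave 9.66, 9.66 and 9.84 on Western diet and 9.45, 9.53 and 9.78 on normal diet. The groups overlapped, with a log2 fold change of 0.13 ± 0.17, adjusted p = 0.859, in WT; a further Mitf probe set lay below background at 4.76 to 4.84 in the group means. The arrays measure RNA level, so nuclear entry of these factors is outside what was measured.

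In EKO fat no member passed for the same diet contrast (limma, 4 arrays against 4; 0.0% of all genes passed). At an unadjusted p under 0.05 there was 1 member, Npc2, against 4.43% of all genes, and 0 members passed in each of the 24 alternatives. The positive values with the smallest p were Npc2 (0.27 ± 0.13), Lgmn (0.35 ± 0.17) and Lipa (0.22 ± 0.12), each with adjusted p = 0.946. The negative values with the smallest p were Tpp1 (-0.14 ± 0.09), Acp2 (-0.19 ± 0.13) and Ids (-0.15 ± 0.10). The EKO diets overlapped for all 41 members, where 0.973% of all genes were apart and higher and 1.59% apart and lower, the log2 fold changes ran from -0.23 to 0.35, and 14 of 41 were positive, against 52.1% of all genes. Gla, at 8.71 ± 0.07 on Western and 8.78 ± 0.09 on normal diet (SD, n = 4 each), had little spread in either EKO group.

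**Figure D2:**
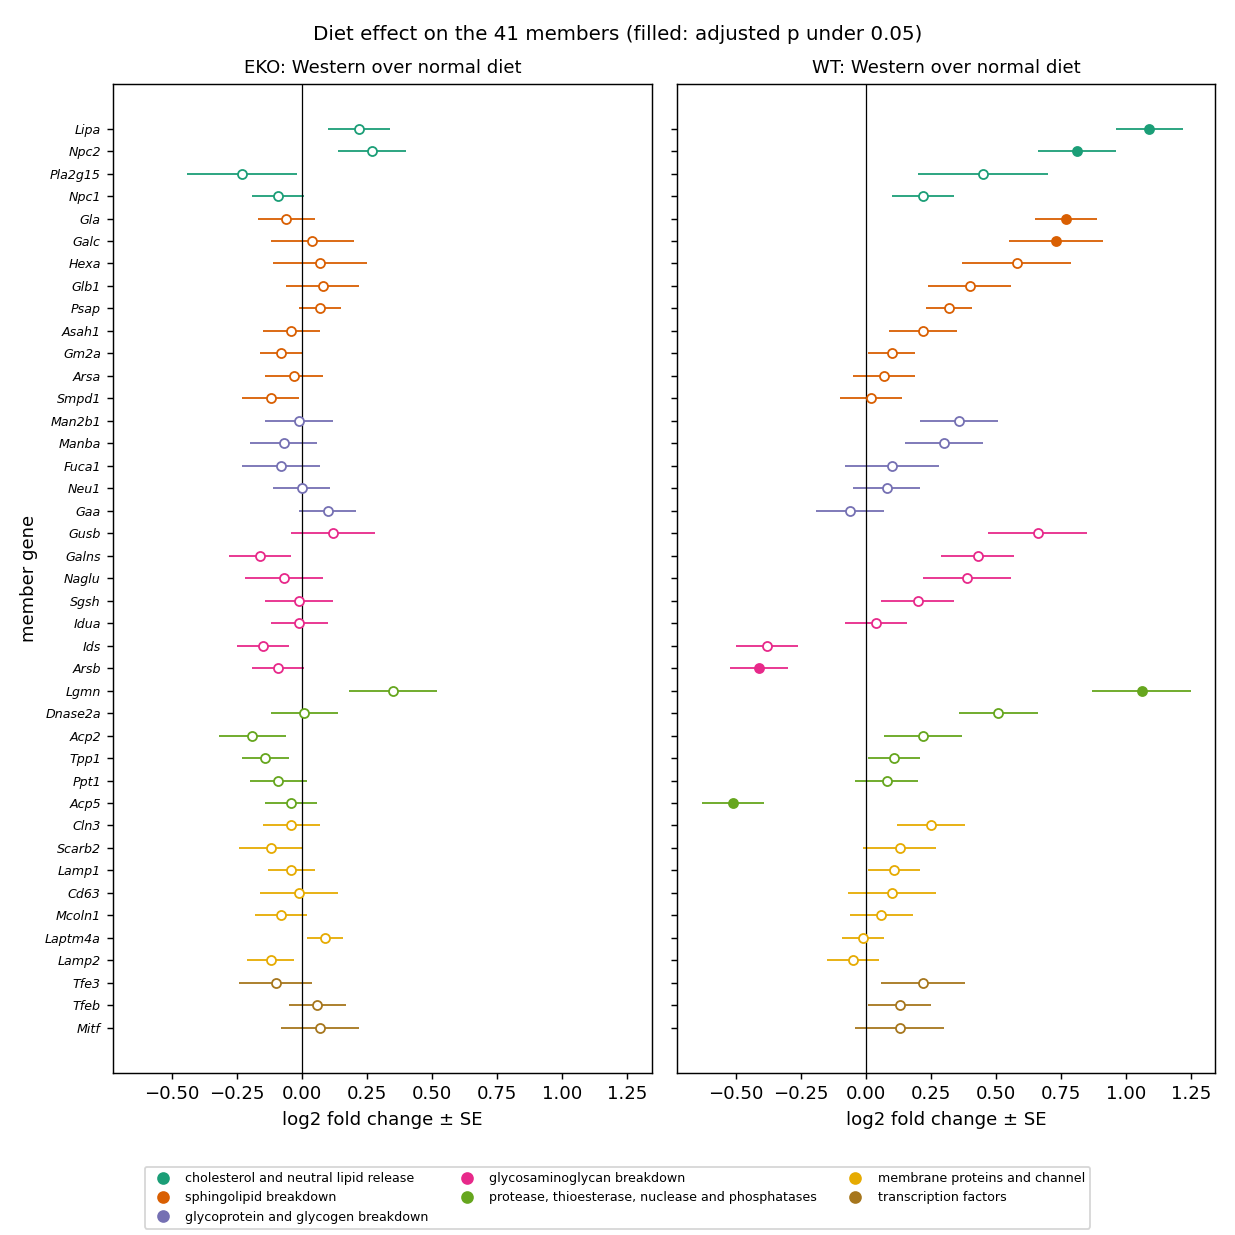
Log2 fold change with its standard error of all 41 members for Western over normal diet, in EKO (left) and WT (right), grouped by role and ordered by the WT value; filled points passed. In WT the values reach from -0.51 (Acp5) to 1.09 (Lipa) and 7 points are filled, while in EKO all lie between -0.23 and 0.35 with none filled.

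The test of the difference between the diet effects called 2 of 41 members, Gla and Lipa, where 0.482% of all genes passed (limma interaction, 14 arrays). The diet effect in EKO minus that in WT was -0.83 ± 0.16 for Gla, adjusted p = 0.0385, and -0.87 ± 0.18 for Lipa, adjusted p = 0.0455. Next in p were Galns (-0.60 ± 0.18, adjusted p = 0.179) and Acp5, with the opposite sign (0.46 ± 0.16, adjusted p = 0.251). For Npc2 the difference was -0.54 ± 0.19, adjusted p = 0.286, and for Lgmn -0.71 ± 0.26, adjusted p = 0.286. A difference in diet effect between the genotypes was thus not shown for Npc2 and Lgmn. Values above 0 were found for 5 of 41 members, against 57.1% of all genes. An unadjusted p under 0.05 was found for 9 of 41 members, 8 below 0 and 1 above, against 10.8% of all genes. Both calls are close to the threshold. Neither passed when any WT array on normal diet or any EKO array on Western diet was left out, nor without EKO replicate 3 on normal diet, nor without replicate 2 or 3 of WT mice fed Western diet, and 1 passed without EKO replicate 1 or 4 on normal diet. With the background sets as a block both passed, and among the 9 arrays of lower background 3 members passed, Gla among them but not Lipa.

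The comparison of the genotypes on Western diet shares the 3 WT arrays on Western diet with the diet comparison in WT, so its values are not independent of it. In EKO 8 of 41 members were lower and 0 higher, where 5.69% of all genes passed, 4.05% lower and 1.64% higher (limma, 4 arrays against 3). With quantile normalization of the tested genes the split was 9 lower and 3 higher, and 1051 lower and 794 higher over all genes, against 808 and 326 without it. Positive values were found for 6 of 41 members, against 57.6% of all genes, with a median of -0.25, against 0.03 over all genes. An unadjusted p under 0.05 was found for 23 of 41 members, 21 lower and 2 higher, against 19.3% of all genes. The groups did not overlap for 16 members that were lower and 3 that were higher in EKO (8.71% and 7.93% of all genes).

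Lipa fell by 0.93 ± 0.12, adjusted p = 0.000815, to 11.05 ± 0.10 in EKO, against 11.98 ± 0.13 in WT (SD, n = 4 and 3). Gla fell by 0.80 ± 0.12, adjusted p = 0.00122, with 8.71 ± 0.07 in EKO and 9.51 ± 0.28 in WT. Npc2 (-0.71 ± 0.14, adjusted p = 0.00749) and Lgmn (-0.88 ± 0.18, adjusted p = 0.0108) fell as well. Gusb (-0.73 ± 0.18, adjusted p = 0.0263), Galns (-0.52 ± 0.13, adjusted p = 0.0266), Dnase2a (-0.59 ± 0.14, adjusted p = 0.0216) and Galc (-0.65 ± 0.17, adjusted p = 0.0374) were lower too. The arrays of the genotypes did not overlap for any of the 8.

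Acp5 (0.37 ± 0.11, adjusted p = 0.0737) and Arsb (0.29 ± 0.10, adjusted p = 0.125) were the members with the largest positive values in EKO, and did not pass. Npc1 was at -0.30 ± 0.11, adjusted p = 0.142, Tfe3 at -0.36 ± 0.15, adjusted p = 0.207 (0.0275 with the background block), Lamp1 at -0.22 ± 0.09, adjusted p = 0.209, and Lamp2 at -0.07 ± 0.09, adjusted p = 0.708. The count of 8 rests on few arrays. It was 13 without WT replicate 1, 4 without WT replicate 2, 2 (Lipa and Gla) without WT replicate 3, 4 without EKO replicate 1 and 5 without EKO replicate 3, all on Western diet. It was 14 (12 lower and 2 higher) with the background sets as a block and 9 (8 lower and 1 higher) in the arrays of lower background, while the count over all genes, 1134 with all arrays and no block, was 2033 and 1616. The set of higher background holds 1 WT array and 2 EKO arrays on Western diet and was not tested alone.

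On normal diet no member passed between EKO and WT (limma, 4 arrays against 3), and 0.00502% of all genes passed. No member had an unadjusted p under 0.05, against 1.13% of all genes, and 0 members passed in each of the 24 alternatives. The log2 fold changes lay between -0.19 and 0.14, with 19 of 41 positive, against 46.8% of all genes. The genotypes overlapped for all 41 members, where 0.848% of all genes were apart and higher and 0.868% apart and lower. By p, the leading negative values were those of Npc2 (-0.18 ± 0.14), Gusb (-0.19 ± 0.18) and Lgmn (-0.17 ± 0.18), and the leading positive ones Ppt1 (0.13 ± 0.12), Acp2 (0.14 ± 0.14) and Manba (0.09 ± 0.14), each with adjusted p = 1. Lipa was 10.83 ± 0.25 in EKO and 10.89 ± 0.12 in WT (SD, n = 4 and 3).

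**Figure D3:**
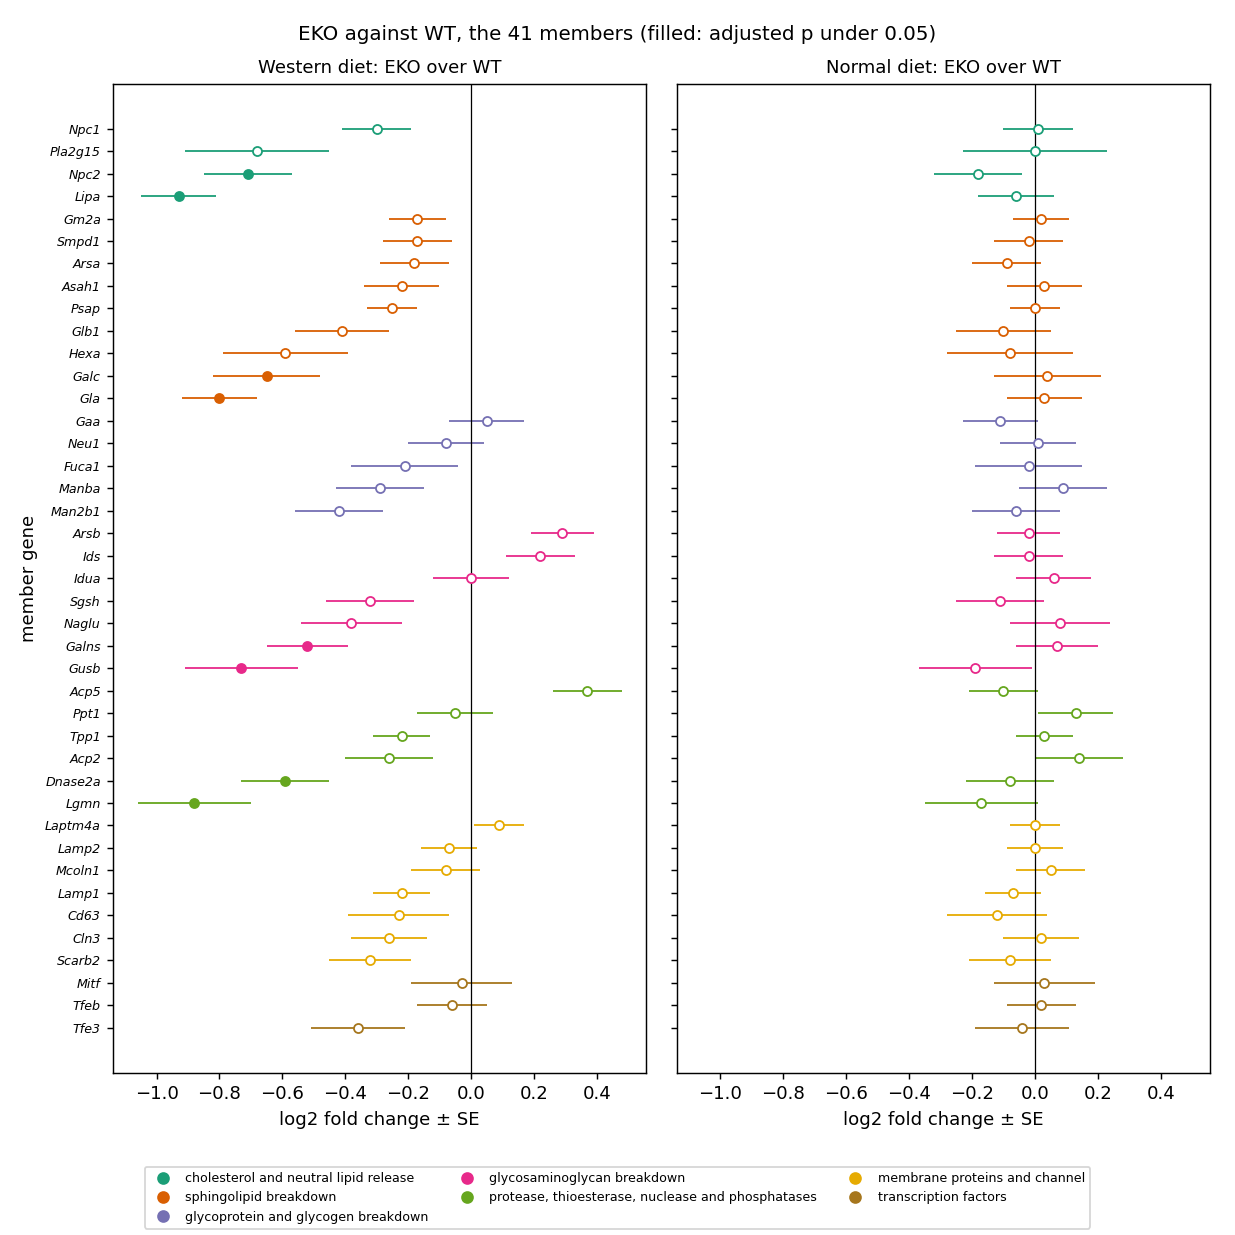
Log2 fold change with its standard error of all 41 members for EKO over WT, on Western diet (left) and normal diet (right), grouped by role and ordered by the value on Western diet; filled points passed. On Western diet 8 points below 0 are filled and the values run from -0.93 (Lipa) to 0.37 (Acp5), while on normal diet all lie between -0.19 and 0.14.

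Other genes of the lysosomal system were taken from lists for comparison, to be read against the 5.49% of all genes that passed for diet in WT and the 5.69% that passed between genotypes on Western diet. Of 21 further lysosomal enzymes and membrane proteins measured, 5 rose in WT on Western diet and none fell, with a median of 0.28. The highest were Gpnmb (2.24 ± 0.34) and Cd68 (1.57 ± 0.26), both known from macrophages, and the lowest that passed were Grn, progranulin (0.52 ± 0.10), and the channel gene Mcoln2 (0.82 ± 0.17). Between them was Laptm5 (1.13 ± 0.20). Cd68 is counted again among the macrophage markers below. In EKO against WT on Western diet 4 of the 21 were lower: Gpnmb (-2.28 ± 0.32), Cd68 (-1.08 ± 0.24), Laptm5 (-1.0 ± 0.19) and Grn (-0.48 ± 0.09).

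Of 11 genes that tag and sort lysosomal enzymes, 1 passed in WT: Sort1, sortilin, fell by 0.43 ± 0.11, adjusted p = 0.0304. None of the 11 passed between genotypes on Western diet, where Sumf1, the activator of sulfatases, had -0.50 ± 0.15, adjusted p = 0.0673, and Sort1 0.29 ± 0.10, adjusted p = 0.117. None of 18 genes listed for the control of TFEB by mTORC1 passed in WT. The smallest p values belonged to Tfec, another factor of the TFEB family (0.47 ± 0.15, adjusted p = 0.0975), and Lamtor3 (0.19 ± 0.08, adjusted p = 0.262). None of the 18 passed between genotypes on Western diet either. Of 21 autophagy genes 1, Uvrag, rose in WT (0.57 ± 0.15, adjusted p = 0.0397), a share near that of all genes. Uvrag (-0.63 ± 0.14) and Wipi1 (-0.64 ± 0.15) were lower in EKO than in WT on Western diet. In EKO no gene of these 4 lists passed for diet, where 0.0% of all genes passed.

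Of 16 macrophage markers 10 rose with Western diet in WT, led by Itgax (2.15 ± 0.17) and Mpeg1 (2.0 ± 0.30), and none fell. In EKO 0 of 16 passed for diet, where 0.0% of all genes passed, and 11 of 16 had positive values, against 52.1% of all genes. On Western diet 12 of 16 were lower in EKO than in WT, where 8 of the 41 members were lower. Their mean level was 9.54 to 9.98 in EKO on Western diet and 9.19 to 10.14 in EKO on normal diet. It was 10.46 to 10.93 in WT on Western diet and 9.5 to 9.77 in WT on normal diet, and 0 of 16 lay at background. The 41 members had a mean of 10.34 to 10.61 in EKO on Western diet and 10.35 to 10.70 in EKO on normal diet. Theirs was 10.62 to 10.92 in WT on Western diet and 10.47 to 10.60 in WT on normal diet.

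Within EKO on normal diet, replicate 4 had the highest mean of both the members (10.70) and the macrophage markers (10.14), and replicate 2 the lowest of both (10.35 and 9.19). This order was not particular to macrophage markers. It also held for adipocyte (13.24 and 13.15), progenitor and fibroblast (10.82 and 10.26) and smooth muscle markers (10.06 and 9.61). Skeletal muscle markers (7.76 and 8.09) and the transcription factors (9.33 and 9.46) had the opposite order. Replicate 2 is an array of higher background. Of 6 mesothelial markers 5 fell in WT on Western diet, and of 11 adipocyte markers 3 fell (Adipoq, Slc2a4 and Retn). In EKO against WT on Western diet, these 3 were higher and Lep was lower. Of 6 osteoclast markers Ctsk (1.22 ± 0.19) and Dcstamp (0.54 ± 0.13) rose and Mmp9 fell (-1.31 ± 0.22), while Acp5, which osteoclasts also make, fell. Of 8 T and NK cell markers Cd3e (0.40 ± 0.11) and Klrd1 (0.46 ± 0.11) rose in WT. S100a8 rose among 7 neutrophil markers, of which 3 had positive and 4 negative values. Lum rose among 7 progenitor and fibroblast markers, also with 3 positive and 4 negative values and a median of -0.16. Myh11 fell among 5 smooth muscle markers, of which 4 had negative values. None of the B cell, mast cell, endothelial, epididymis and skeletal muscle markers passed there. In EKO no marker of any of these lists passed for diet, where 0.0% of all genes passed. The part of these cell types in the members' values was not tested.

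**Figure D4:**
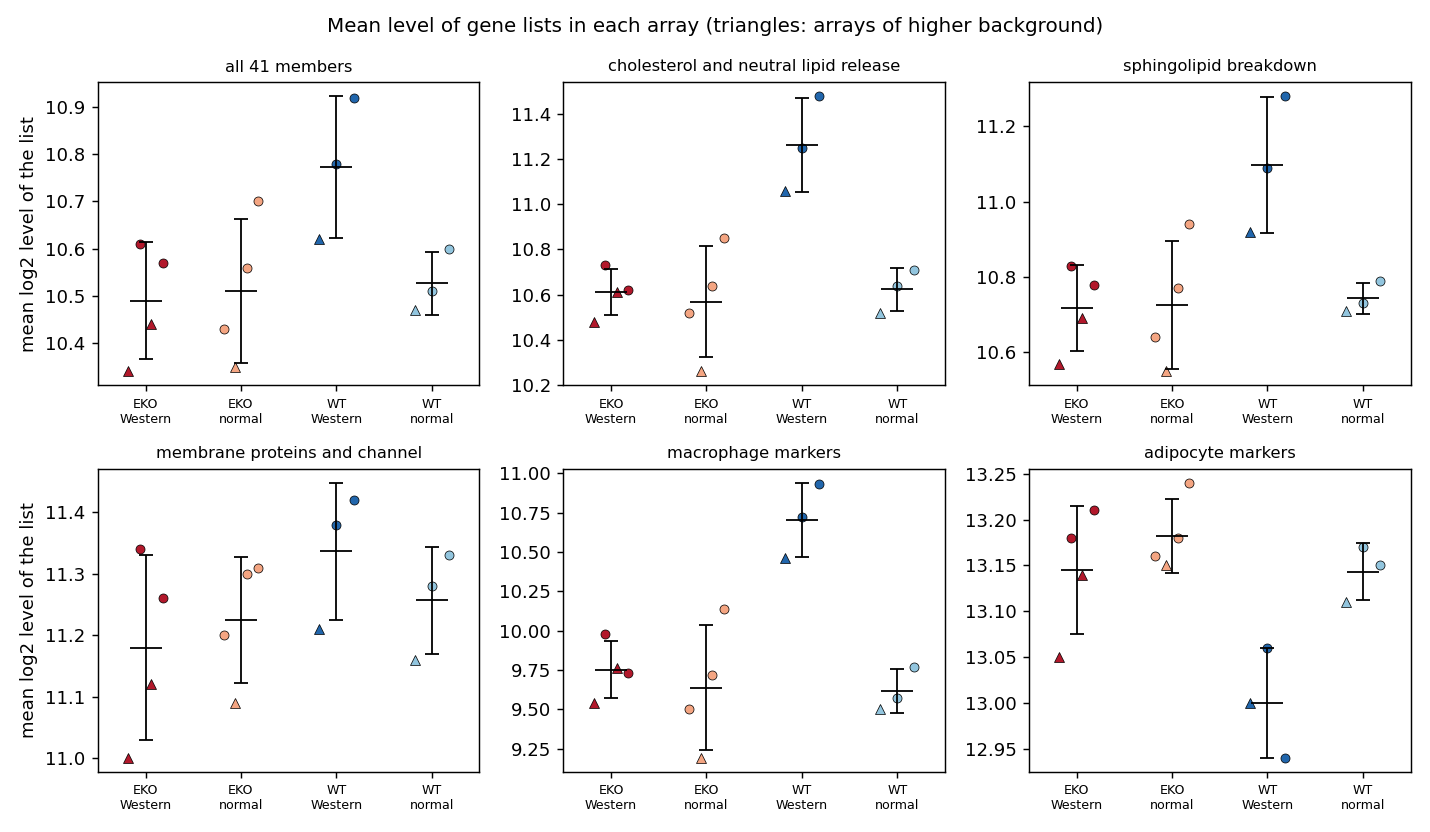
Mean log2 level of 6 gene lists in each array, with the group mean (bar) and SD (whiskers); triangles are the 5 arrays of higher background. The cholesterol and neutral lipid members and the macrophage markers stand highest in the 3 WT arrays on Western diet, the lowest of these arrays for sphingolipid genes (10.92) lies below 1 EKO array on normal diet (10.94), the membrane proteins overlap across groups, and the adipocyte markers are lower in WT on Western diet than in WT on normal diet.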

How the data were processed

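RNA of 14 epididymal fat pad samples was measured on Affymetrix arrays. The deposited values are log2 probe set levels made by the authors with RMA, per the submitters' processing notes, which give no version or settings, and RMA brings arrays to a like distribution, so a shift of all genes would not be seen. Of 34760 probe sets, 21640 had 1 gene symbol in the platform annotation, 1321 several and 11799 none. The set with the highest mean over the arrays stood for each of 19937 genes. Of the sets with 1 symbol, 21553 were matched by Entrez ID and 0 symbols changed.

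One mean per group was fitted to all 14 arrays with limma 3.58.1 in R 4.3.3 (10 residual degrees of freedom), with contrasts for diet in each genotype, genotype on each diet and their difference. Benjamini-Hochberg adjusted p under 0.05 over all 19937 genes counted as a pass, and SE is limma's. The fit was tested on simulated data with independent noise in each gene and array and no background sets, so that test does not cover the background seen here. The number of arrays limits the precision; array medians were 7.92 to 8.10, arrays of a group correlated at 0.976 to 0.995, and 0 pairs were identical. Background was the mean of 1204 olfactory and vomeronasal receptor rows, and the arrays were split at its largest gap. The p values measure spread between the arrays as deposited.

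The members and all lists were chosen with earlier results of these data known. Values per array are given for Lipa, Npc1, Npc2, Lamp1, Lamp2, Tfeb, Tfe3, Mitf and every member that passed in a comparison; where none of a group passed, the smallest p values are named, and of each further list the highest and lowest that passed or the smallest p values. Promoters are RefSeq's (GRCm38.p6) by symbol. Alternatives were array centring, quantile normalization, a trended robust prior, array weights, leaving out the dimmest 25% of genes, the mean of all probe sets, the compared groups alone, background as a block, lower background alone, a replicate block and leaving out each array.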

Additional observations from a re-analysis of the deposited data

Results flagged for a closer look

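Within groups of 4 arrays, 1 array stood far from the other 3 in 7 of the 82 member-by-group sets examined, where chance gives about 1 in 20. The sets share the same EKO arrays and are not independent, so the 7 cannot be weighed against that share. In EKO on Western diet, replicate 1 was lowest for Npc2 (10.84, the next array 11.21), Glb1 (9.56, next 10.02), Fuca1 (10.38, next 10.85) and Sgsh (9.18, next 9.46), and replicate 2 was highest for Lipa (11.21, next 11.02). In EKO on normal diet, replicate 2 was lowest for Arsb (10.88, next 11.07) and highest for Mitf (9.95, next 9.54). Both replicate 1 on Western diet and replicate 2 on normal diet belong to the 5 arrays of higher background; the part of background in these values was not tested.

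The diet effect differed between the genotypes by the interaction test for Lipa (-0.87, adjusted p = 0.0455) and Gla (-0.83, adjusted p = 0.0385; limma). Both values are the EKO effect minus the WT effect. Of 23 alternatives, the Lipa call was lost in 11 and the Gla call in 12.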

How the results depend on the processing

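No member result that passed changed sign in any alternative. Of 17 such results 6 passed in every one: Lipa, Npc2, Gla and Lgmn for diet in WT, and Lipa and Gla for EKO against WT on Western diet. For diet in WT, 7 members passed; 13 did with quantile normalization, 21 with array weights, 4 with the compared groups alone, 12 with background as a block, 12 in the arrays of lower background alone and 11 with a replicate block. Leaving out 1 array gave 4 to 10. For EKO against WT on Western diet, 8 passed, against 25 with array weights, 14 with background as a block and 11 with a replicate block, and leaving out 1 array gave 2 to 13. For the interaction, 2 passed, against 10 with array weights and 2 with a replicate block, and leaving out 1 array gave 0 to 2. For diet in EKO and for genotype on normal diet, 0 members passed in every alternative, the replicate block included. Over all genes the counts ran from 415 to 5224, from 316 to 6789, from 37 to 2338, from 0 to 8 and from 1 to 3 for these comparisons in the same order. The array weights settings gave the highest counts; the cause was not tested.

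Replicate numbers were not taken to pair arrays: deviations of same-numbered arrays correlated at 0.009 to 0.458 between diets in WT, at -0.593 to 0.452 between diets in EKO, at -0.109 to 0.207 between genotypes on normal diet and at -0.114 to 0.644 between genotypes on Western diet. Of the 41 members, 0 lay at or below background.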
